A study of Homo sapiens with 8 samples.

Results

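RNA polymerase II (RNAPII) occupancy was examined in the windows that follow the transcription end site (TES) of protein-coding genes, in MDA-MB-453 cells treated with vehicle or with the CDK9 inhibitor CDDD11-8. Genes were taken from GENCODE release 44 in GRCh37 (hg19) coordinates, each as its longest isoform, and were kept when they were at least 1 kb long and when no other annotated gene of any type lay within 15 kb after the TES on either strand. This rule, which uses the annotation only, kept 4597 of 19630 protein-coding genes of at least 1 kb (23.4%). Each gene contributed windows at 0-1, 1-3, 3-5, 5-10 and 10-15 kb after the TES, which made 22985 windows in all. By gene length, 857 genes spanned 1-10 kb, 1008 spanned 10-30 kb, 1395 spanned 30-100 kb and 1337 spanned 100 kb or more. An RNAPII peak within 300 bp of the transcription start site (TSS) was present in all 4 libraries for 1853 of these genes, in none for 2470, and in some of the libraries for 274. The first of these classes is called genes with a constant promoter peak below.

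The experiment was a chromatin immunoprecipitation (ChIP)-seq of RNAPII in MDA-MB-453, an established human breast cancer cell line. Cells received vehicle or 600 nM CDDD11-8 (D11-8 in the sample labels) for 4 h, with 2 replicates per treatment from consecutive passages, and peaks were called in each library against its own input. The antibody recognises the C-terminal domain of RNAPII. All groups shared the same cell line, so the values describe 1 line at 1 dose and 1 time. Of 9 luminal marker promoters, all carried a peak in all 4 libraries, whereas promoters of 4 basal and 3 immune markers carried none. Of 2 markers of stroma and endothelium, COL3A1 carried none and COL1A1 carried a promoter peak in 1 library.

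Cleavage and polyadenylation release the transcript at the end of a gene, but RNAPII continues to transcribe past that point until it is removed from the template. The enzyme slows after the poly(A) signal, so that ChIP signal often accumulates within a few kilobases after the TES of active genes. CDK9 is the kinase of P-TEFb, which releases RNAPII from promoter-proximal pausing, and RNAPII that is not released does not reach the TES. The windows therefore ask how much RNAPII was detected past the end of the gene, and how far, with and without the inhibitor.

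Most of the gene ends that open these windows carry a hexamer of the signal that is read by the cleavage machinery. The hexamer AATAAA was present on the sense strand within the last 50 bases of 59.9% of the 4597 genes, against 57.1% of all 19630 genes, and ATTAAA was present in 17.6% against 16.3%. On the opposite strand of the same bases AATAAA was found in 7.33% of the 4597 genes, and in the last 50 bases of the 15 kb it was found on the sense strand in 4.05%. Copies of the hexamers can overlap, and both can occur in 1 gene end. The ends of 6 genes described below are shown in the sense direction, 30 bases each, to place the start of the windows. Capitals mark the hexamer, and where it occurs more than once, as in E2F2, the copy nearest the TES.
INSIG2, chr2:118868544-118868573, plus strand: ttaataccAATAAAtacttctgtaatccta
LMNB1, chr5:126172677-126172706, plus strand: tgacattaacaAATAAAaaagctcttttaa
GMPS, chr3:155661780-155661809, plus strand: cttataaaATTAAAgtcatatatgtatata
DYRK1A, chr21:38898631-38898660, plus strand: tgttttatgtAATAAAtatgctaagctaaa
RPS15A, chr16:18792617-18792646, minus strand: cttcaaaAATAAAataggatatgaaaatgg
E2F2, chr1:23832930-23832959, minus strand: agataattgggcattaaacATTAAActgca
INSIG2, LMNB1, GMPS and E2F2 had lower downstream coverage with CDDD11-8, and DYRK1A and RPS15A had higher coverage, as described below, so a hexamer was present at ends of both kinds. Neither hexamer was present in 26.8% of the 4597 gene ends. KPNA2, SPRED2 and SRSF3, also described below, were among these.

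The sequence under 1 summit is shown for KPNA2, a gene whose far windows were covered with CDDD11-8 only. A summit is the position of highest signal that the peak caller reported. The sequence is the GRCh37 reference, 201 bases in the sense direction of the gene, with the 21 bases around the summit of CDDD11-8 replicate 1 in capitals.
KPNA2, chr17:66048970-66049170, plus strand: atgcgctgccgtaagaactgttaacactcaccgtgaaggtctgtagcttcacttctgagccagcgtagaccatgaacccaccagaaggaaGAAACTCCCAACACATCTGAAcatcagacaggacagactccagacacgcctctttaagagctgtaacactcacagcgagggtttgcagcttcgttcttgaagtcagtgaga
The KPNA2 summit lay 5.59 kb after the TES, with a summit 139 bp away in CDDD11-8 replicate 2. The strongest KPNA2 summit of replicate 2 lay elsewhere, at 10.035 kb. The 15 kb held 22 and 20 summits in CDDD11-8 replicates 1 and 2, so a nearby summit is not agreement on the strongest site. In genes of the opposite behaviour the summits of vehicle replicate 1 are given by position. The strongest INSIG2 summit lay 2.58 kb after the TES with a fold enrichment of 9.88, where fold enrichment is the signal at the summit over its local background. In vehicle replicate 2 the strongest INSIG2 summit lay at 2.94 kb with a fold enrichment of 9.79. The strongest LMNB1 summit lay 8.01 kb after the TES, with another summit 11 bp away in vehicle replicate 2. The strongest LMNB1 summit of vehicle replicate 2 lay at 3.34 kb.

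In vehicle-treated cells, coverage was highest 1-3 kb after the TES and declined with distance, and with CDDD11-8 it was lower by 3.90 to 4.99 times up to 5 kb. Coverage is the percent of window bases that lie inside a peak, summed over all 4597 genes. In the 1-3 kb window it was 12.5% and 9.99% in vehicle replicates 1 and 2, and 2.71% and 1.79% in CDDD11-8 replicates 1 and 2. The vehicle mean was 11.2% ± 1.74 (SD, n = 2), the CDDD11-8 mean was 2.25% ± 0.650 (SD, n = 2), and their ratio was 4.99. The 0-1 kb window was covered at 11.2% and 9.23% with vehicle and at 3.09% and 2.15% with CDDD11-8, a ratio of 3.90. The 3-5 kb window was covered at 9.09% and 6.73% with vehicle and at 2.29% and 1.69% with CDDD11-8, a ratio of 3.97. In these 3 windows both CDDD11-8 libraries lay below both vehicle libraries, by more than the spread between replicates.

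Farther from the TES the treatments drew together. The 5-10 kb window was covered at 4.49% and 3.13% with vehicle and at 1.83% and 1.22% with CDDD11-8, a ratio of 2.50. The 10-15 kb window was covered at 2.43% and 1.85% with vehicle and at 1.89% and 1.34% with CDDD11-8. In that last window the groups overlapped, and the difference of means was no larger than the spread of the replicates (p = 0.667 in a two-sided exact permutation test). With 2 libraries against 2, this exact test over 6 splits cannot give a p below 0.33, which is the value it gave for the 4 windows nearer the TES, so the comparisons rest on the values per library. The direction at 10-15 kb was the only one among the 5 windows that turned under another choice, with coverage higher by 0.103 percentage points with CDDD11-8 when each library was cut to its 21842 strongest peaks.

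Summits were also most frequent at 1-3 kb with vehicle, although the windows are 1, 2, 2, 5 and 5 kb wide and the shares of genes in them are not per base. In the 1-3 kb window, 19.4% and 16.0% of genes had at least 1 summit with vehicle, and 4.31% and 2.81% with CDDD11-8. The 0-1 kb window held a summit in 13.8% and 11.2% of genes with vehicle and in 3.42% and 2.52% with CDDD11-8. For 3-5 kb the shares were 15.2% and 11.7% with vehicle, and 3.87% and 2.96% with CDDD11-8. At 5-10 kb they were 11.3% and 8.66% against 4.57% and 3.50%. At 10-15 kb the vehicle shares were 6.35% and 4.70% and the CDDD11-8 shares 4.70% and 3.52%, so the lower vehicle library and the higher CDDD11-8 library were equal. With CDDD11-8 the share was lowest at 0-1 kb in both libraries, whereas with vehicle it was lowest at 10-15 kb.

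A peak region that spanned the TES itself was found in 8.88% and 7.16% of genes with vehicle and in 3.05% and 2.09% with CDDD11-8. Where such a region existed, it reached a median of 2406 and 2404 bp past the TES with vehicle, and 1457 and 1078 bp with CDDD11-8. In genes of 100 kb or more the order was the opposite, with medians of 736 and 1761 bp with vehicle and 2369 and 2770 bp with CDDD11-8. The CDDD11-8 medians rest on few genes. Regions crossing the TES were found for 50 and 39 such genes with vehicle and for only 9 and 6 with CDDD11-8. In genes of 10-30 kb the medians were 2698 and 2575 bp against 2219 and 2476 bp. The shorter pooled reach also depended on how regions are drawn by the caller, since with each summit given a fixed 250 bp on either side the difference of medians was 34.5 bp in the other direction. As a background, bases at least 15 kb from any annotated gene (594.2 Mb in all) were covered at 0.0880% and 0.0827% with vehicle and at 0.0974% and 0.0842% with CDDD11-8. The 15 kb after the TES were covered at 5.93% and 4.51% with vehicle and at 2.11% and 1.46% with CDDD11-8. Relative to the distant background of the same library, the windows were therefore 67.4 and 54.5 times as covered with vehicle, and 21.7 and 17.3 times with CDDD11-8.

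The whole lists also shortened with treatment, from 78306 and 57493 peaks with vehicle to 25897 and 21842 with CDDD11-8, covering 108.5 and 87.3 Mb against 67.7 and 54.6 Mb. The lists hold no read totals, so depth is unknown, and the signal of the CDDD11-8 libraries had been scaled whereas that of the vehicle libraries had not. The part of list length in the lower downstream coverage was not tested beyond the cut to equal numbers of peaks. That cut kept the direction up to 10 kb but reduced the difference from -8.97 to -5.78 percentage points at 1-3 kb and from -2.29 to -1.08 at 5-10 kb. A coverage of 0 means that no region passed the caller's threshold, and not that RNAPII was absent.

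Downstream coverage was found mainly after genes with a promoter peak. After the 1853 genes with a constant promoter peak, the 0-1 kb window was covered at 25.2% and 20.8% with vehicle and at 6.69% and 4.62% with CDDD11-8. The 1-3 kb window of these genes was covered at 28.0% and 22.6% with vehicle and at 5.86% and 3.84% with CDDD11-8. After the 2470 genes without a promoter peak, the 1-3 kb window was covered at 1.25% and 0.848% with vehicle and at 0.240% and 0.184% with CDDD11-8. The ratio between these gene classes was 22.4 and 26.6 with vehicle and 24.4 and 20.8 with CDDD11-8 at 1-3 kb, and it declined to 3.68 and 3.36 against 6.37 and 5.74 at 10-15 kb. Over these pooled classes the contrast was therefore of similar size with both treatments near the TES, while at 10-15 kb it was higher in both CDDD11-8 libraries. Among genes with no gene within 30 kb, a set chosen after seeing the data, it was larger with CDDD11-8 at 1-3 kb too. There the vehicle mean was 5.01 times the CDDD11-8 mean with a constant promoter peak (967 genes). Without a promoter peak it was 11.0 times (1367 genes), at CDDD11-8 values of only 0.0549% and 0.0594%.

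Around the TES of the 1636 genes that had a constant promoter peak and spanned at least 10 kb, the vehicle profile was higher after the TES than before it. In bins of 0.5 kb, coverage was 16.1% and 12.7% in the last bin before the TES and reached its highest value 2-2.5 kb after the TES in replicate 1 (27.5%) and 1-1.5 kb after it in replicate 2 (21.9%). It was down to no more than 50% of its highest value from 5.5 kb and from 5 kb onwards. With CDDD11-8 the profile was lower at the TES and in the first kilobases after it. Its highest bins were 1.5-2 kb after the TES in replicate 1 (4.60%) and 3-3.5 kb in replicate 2 (3.28%), against 3.31% and 1.76% in the last bin before the TES. At the far end, 14.5-15 kb after the TES, coverage was 3.92% and 3.20% with vehicle and 4.51% and 3.22% with CDDD11-8.

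The part of the downstream coverage that was left differed with gene length. Over the whole 15 kb, genes of 1-10 kb were covered at 3.80% and 3.16% with vehicle and at 2.34% and 1.60% with CDDD11-8, a ratio of 1.77. Genes of 10-30 kb were covered at 6.93% and 5.18% against 2.77% and 1.98%, a ratio of 2.55. Genes of 30-100 kb were covered at 8.28% and 6.19% against 2.26% and 1.54%, a ratio of 3.81. Genes of 100 kb or more were covered at 4.09% and 3.10% against 1.32% and 0.888%, a ratio of 3.25. The ratio was thus lowest in the shortest class and highest in genes of 30-100 kb, and in each class both CDDD11-8 libraries lay below both vehicle libraries.

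Among genes with a constant promoter peak the shortest class again kept the largest part. In the 0-1 kb window of the 217 such genes of 1-10 kb, coverage was 45.6% and 43.4% with vehicle and 27.5% and 21.7% with CDDD11-8, and 55.3% of the vehicle mean was left. For the 446 genes of 10-30 kb it was 33.4% and 27.2% against 6.49% and 3.95%, with 17.2% left. For the 678 genes of 30-100 kb it was 24.3% and 18.4% against 3.54% and 2.12%, with 13.3% left. For the 512 genes of 100 kb or more it was 10.5% and 8.79% against 2.22% and 1.27%, with 18.03% left. At 10-15 kb, 137% of the vehicle mean was found in genes of 1-10 kb and 115% in genes of 10-30 kb, but the groups overlapped there. Coverage at 10-15 kb in genes of 1-10 kb was 2.66% and 1.96% with vehicle, and 3.83% and 2.47% with CDDD11-8.

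In short genes part of this coverage belonged to the promoter peak itself. Each covered base was assigned to the kind of region it lies in, for genes with a constant promoter peak. In genes of 1-10 kb, regions that also spanned the promoter held 46.4% and 48.4% of the covered bases with vehicle, and 49.1% and 42.5% with CDDD11-8. In genes of 30-100 kb that share was 0.959% and 0.477% with vehicle and 0 in both CDDD11-8 libraries, and in genes of 100 kb or more it was 0 in all 4 libraries. Regions that began in the gene, missed the promoter and crossed the TES held 24.8% and 19.2% of covered bases in genes of 30-100 kb with vehicle, and 9.91% and 4.34% with CDDD11-8. Regions lying wholly after the TES and ending within the 15 kb held the largest part in that length class, 71.9% and 77.2% with vehicle and 73.5% and 84.8% with CDDD11-8. Expressed per window base, regions crossing the TES without the promoter went from 3.54% and 2.04% with vehicle to 0.397% and 0.118% with CDDD11-8 in these genes. In genes of 1-10 kb, regions wholly after the TES went from 4.76% and 3.73% to 2.81% and 2.64%, leaving 64.2% of the vehicle mean. Promoter-spanning regions left 56.1% there, so the larger part kept by short genes was not confined to them. Regions wholly after the TES left 40.8% in genes of 10-30 kb, 28.4% in genes of 30-100 kb and 28.3% in genes of 100 kb or more.

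Regions that began after the TES and ran past 15 kb did not show the same lower coverage. Over all genes with a constant promoter peak they covered 0.323% and 0.339% of the 15 kb with vehicle, and 0.701% and 0.341% with CDDD11-8. Over all 4597 genes they covered 0.296% and 0.281% against 0.346% and 0.181%, with overlapping groups. As a share of the covered bases after genes with a constant promoter peak they were 2.63% and 3.67% with vehicle and 16.0% and 11.4% with CDDD11-8.

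Gene by gene, no peak lay in the 15 kb after 3264 of the 4597 genes (71.0%) in any library. For 799 genes, which is 17.4% of all, each CDDD11-8 library had less coverage of the 15 kb than either vehicle library, and for 84 genes, or 1.83%, each had more. The groups overlapped for another 450 genes with coverage. A peak was present in both vehicle libraries and absent from both CDDD11-8 libraries after 543 genes, and the reverse held after 16. Among the genes with a constant promoter peak, 685 of 1853 (37%) were lower and 60 (3.24%) were higher by the same rule. By window, the share of the 1853 genes that was lower was 22% at 0-1 kb, 30.3% at 1-3 kb, 21.6% at 3-5 kb, 12.6% at 5-10 kb and 4.91% at 10-15 kb. The share that was higher moved the other way, from 0.324% at 0-1 and 1-3 kb to 1.67% at 3-5 kb, 3.08% at 5-10 kb and 4.1% at 10-15 kb. Among the 2470 genes without a promoter peak, 80 (3.24%) were lower and 18 (0.729%) were higher, and 2314 had no peak in the 15 kb in any library.

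A summit lay within 5 kb of the TES in both vehicle libraries for 834 genes. They were chosen by their vehicle values, so that a lower count with CDDD11-8 is partly built in, and the counts are a description. A summit was present within 5 kb in both CDDD11-8 libraries for 176 of them (21.1%), in 1 library for 78, and in neither for 580 (69.5%). The reverse, with a summit in each CDDD11-8 list but in no vehicle list, was found for 7 of all 4597 genes. By length, a summit was found in neither CDDD11-8 library for 39.3% of 122 genes of 1-10 kb, 70.7% of 225 genes of 10-30 kb, 76.2% of 319 genes of 30-100 kb and 77.4% of 168 genes of 100 kb or more. Replicate lists shared most of these genes, since 77.8% of the 1072 genes of vehicle replicate 1 and 92.4% of the 903 of vehicle replicate 2 were shared between them. Of the 273 genes of CDDD11-8 replicate 1, 68.5% were shared with replicate 2, and of the 206 of replicate 2, 90.8% were shared with replicate 1.

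The strongest downstream summit lay farther from the TES with CDDD11-8 when each library was read over its own genes. Genes with a summit in the 15 kb numbered 1204 and 1032 with vehicle and 449 and 349 with CDDD11-8. These sets differ, so a larger median need not mean that a summit moved in any gene. The median distance of the strongest summit was 2.63 and 2.38 kb with vehicle and 5.87 and 5.98 kb with CDDD11-8. It lay within 5 kb of the TES in 72.8% and 74.7% of genes with vehicle and in 45.4% and 45.3% with CDDD11-8. Its median fold enrichment was 4.56 and 4.35 with vehicle, against 4.39 and 4.02 with CDDD11-8, so the groups overlapped in height (p = 0.667 in the same exact permutation test). The caller keeps only summits above its threshold, so the heights of summits that stayed say nothing of those that were lost. Genes with a summit in both places numbered 941 and 806 with vehicle and 330 and 247 with CDDD11-8, again different sets. In them the promoter summit exceeded the downstream one by a median of 0.16 and 0.82 on the log2 scale with vehicle. With CDDD11-8 it did so by 2.75 and 2.27. The vehicle replicates differed in this ratio, with the downstream summit above the promoter summit in 42.0% of genes in replicate 1 and in 10.0% in replicate 2, against 5.15% and 6.07% with CDDD11-8.

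The surroundings of the windows bear on the far end. Among genes with a constant promoter peak whose next gene lay 15-30 kb away on the opposite strand, and so ended towards them, the 10-15 kb window was covered at 7.32% and 5.93% with vehicle and at 3.29% and 2.16% with CDDD11-8 (424 genes). Where the next gene lay at that distance on the same strand, and so began there, the window was covered at 3.98% and 2.55% with vehicle and at 5.08% and 3.40% with CDDD11-8 (462 genes). For the 967 genes with no gene within 30 kb it was 2.29% and 1.58% with vehicle, against 3.01% and 2.19% with CDDD11-8. For this last set the windows could be followed farther. The 15-20 kb window was covered at 1.10% and 0.799% with vehicle and at 1.77% and 1.33% with CDDD11-8, so that both CDDD11-8 libraries lay above both vehicle libraries. The 20-30 kb window was covered at 1.03% and 0.793% against 1.56% and 1.09%. In the 1367 genes without a promoter peak and with no gene within 30 kb, both CDDD11-8 libraries lay below both vehicle libraries in these 2 windows. These sets by neighbour were chosen after the values in the windows had been seen.

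Base composition differed between genes that were lower and higher. The GC content of the 15 kb had a median of 43.3% in the 685 lower genes, 46.2% in the 60 higher genes and 42.5% in the other 1108. In the 463 genes with the lowest GC content, coverage was 7.41% and 7.09% with vehicle and 1.19% and 0.988% with CDDD11-8, leaving 15.03% of the vehicle mean. In the 464 genes with the highest it was 17.6% and 12.2% against 8.91% and 5.42%, leaving 48.2%. In percentage points the difference was larger at high GC content, -7.70 against -6.16, and across the 1853 genes GC content and the difference had a Spearman correlation of -0.085, which describes genes that are not independent replicates. Genes of the lowest GC content were also longer, with a median length of 75.2 kb against 32.7 kb, and the parts of GC content and of length were not tested apart. Among genes with a constant promoter peak, those with AATAAA at their end had a summit within 5 kb in 53.2% and 45.0% of cases with vehicle and those with neither hexamer in 47.7% and 36.8%. With CDDD11-8 the values were 12.6% and 9.54% against 13.0% and 9.59%.

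Among genes with a constant promoter peak, the 6 whose coverage of the 15 kb was lower by the largest amount were chosen by that coverage, so their values are a description. INSIG2, which encodes an endoplasmic reticulum protein that holds back sterol-regulated transcription factors, was covered at 91.6% and 95.8% over chr2:118868574-118883573 with vehicle. It had no peak there with CDDD11-8. The region over its TES ran on for 13.7 and 11.9 kb with vehicle. GMPS, the GMP synthetase of purine synthesis, was covered at 77.2% and 76.2% with vehicle and at 0 in both CDDD11-8 libraries. LMNB1, the gene of lamin B1 in the nuclear lamina, was covered at 79.6% and 76.2% with vehicle and at 0 in both CDDD11-8 libraries. In these genes all 5 windows were empty after treatment, while the promoter peak remained by the rule of choice.

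STT3B, a catalytic subunit of oligosaccharyltransferase, was covered at 77.6% and 77.8% with vehicle and not with CDDD11-8. Its coverage increased with distance from the TES, from 30.1% and 0 at 0-1 kb to 100% and 90.2% at 10-15 kb with vehicle, and OSBPL10 lay 20.3 kb away on the opposite strand. CDC42, a small GTPase of cell polarity, was covered at 90.6% and 95.2% with vehicle and at 12.4% and 3.48% with CDDD11-8. SETD5, a SET domain gene, was covered at 97.9% and 93.5% with vehicle and at 20.1% and 17.5% with CDDD11-8. Of the 6 genes, 5 had their next gene on the opposite strand, as had 337 of the 685 lower genes, and GMPS had it on the same strand, as had 347 of them.

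The 6 genes whose coverage was higher by the largest amount, also chosen by that coverage, differed mainly in the far windows. In KPNA2, RPS15A, SFPQ and GPX1 the 0-1 and 1-3 kb windows were already covered at 100% in both vehicle libraries. Higher coverage of these 15 kb could therefore only lie farther out, and its place is a description. KPNA2, an importin alpha of nuclear import, was covered at 24.8% and 30.8% with vehicle and at 97.9% and 94.8% with CDDD11-8 over chr17:66043481-66058480. At 5-10 and 10-15 kb it had no peak in either vehicle library, whereas both windows were covered at 100% in both CDDD11-8 libraries. RPS15A, a small ribosomal subunit protein gene, was covered at 48.9% and 35.5% with vehicle and at 98.6% and 87.3% with CDDD11-8. Its 10-15 kb window went from 0 in both vehicle libraries to 100% in both CDDD11-8 libraries, and its next gene lay 183 kb away. DYRK1A, a protein kinase gene of 159.6 kb, was covered at 23.2% and 8.93% with vehicle and at 82.9% and 68.1% with CDDD11-8.

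ETF1, the translation termination factor eRF1, was covered at 34.3% and 26.5% with vehicle and at 96.4% and 85.2% with CDDD11-8. Its strongest summit with CDDD11-8 lay 14.0 and 14.2 kb after the TES, against 2.98 and 0.677 kb with vehicle. SFPQ, a splicing factor, was covered at 47.4% and 41.8% with vehicle and at 93.7% and 92.2% with CDDD11-8, and GPX1, a glutathione peroxidase, went from 30.3% and 29.2% to 91.0% and 71.1%. In all 6 genes both vehicle libraries were covered at 0-1 kb, and the 10-15 kb window held at most 5.62% with vehicle. Over all 60 higher genes, mean coverage at 0-1 kb was 61.5% and 62.0% with vehicle and 55.0% and 42.3% with CDDD11-8, and at 10-15 kb it was 4.78% and 3.76% against 36.0% and 31.2%. These 60 genes were chosen by coverage that includes these windows, so the means are a description too.

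Of the 5 genes with the highest coverage in all libraries, FGFR4, a fibroblast growth factor receptor, was covered at 97.5% and 88.8% with vehicle and at 98.9% and 94.7% with CDDD11-8. SPRED2, an inhibitor of Ras signalling, was covered at 97.9% and 91.1% against 96.6% and 83.1%. For both genes the groups overlapped, and the sign of the small difference turned when 1 library was left out. NAP1L4, a nucleosome assembly protein gene, was covered at 73.9% and 74.9% against 93.6% and 76.8%. Its strongest summit with CDDD11-8 lay 14.6 and 14.7 kb after the TES, close to PHLDA2, which begins 15.01 kb away. TPT1, a translationally controlled protein gene, went from 69.9% and 65.5% to 100% in both CDDD11-8 libraries. SRSF3, a splicing factor, went from 100% and 89.99% to 84.2% and 64.0%, and its 0-1 kb window from 100% in both vehicle libraries to 1.80% and 40.5%.

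Genes that the study follows as targets were among the windows that emptied. Such emptying was common: 471 of the 1853 genes with a constant promoter peak were covered in both vehicle libraries and in neither CDDD11-8 library. E2F2, an activator of cell cycle entry, was covered at 26.2% and 20.5% with vehicle and at 0 in both CDDD11-8 libraries. Its 0-1 and 1-3 kb windows were covered at 100% in both vehicle libraries. CENPF, a kinetochore protein, was covered at 15.8% and 45.6% with vehicle and at 0 with CDDD11-8, so the vehicle replicates differed widely. MYC was covered at 2.77% and 3.69% with vehicle, all of it within 1 kb of the TES, and at 0 with CDDD11-8. That vehicle coverage held 1 summit per library, with low fold enrichments of 3.03 and 2.55. MCL1 and CDK9 have a neighbour within 15 kb and were not among the genes.

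Mitosis genes had 7 members, none of which had a downstream peak with CDDD11-8. Any coverage of the 15 kb was found with CDDD11-8 in only 10.4% and 8.05% of all genes, and in 20.3% and 15.5% of genes with a constant promoter peak, so an absence from 7 genes is near the level of all genes. Of the 7, 4 were lower, none was higher, 2 overlapped and 1 had no peak in any library, against 17.4% lower among all genes. The median difference was -10.5 percentage points against 0 over all genes. All 4 lower genes were among the 6 members with a constant promoter peak, of which class 37% were lower. The median difference of these 6 was -16.9 percentage points, against -1.17 in the whole class. CDK1, the mitotic kinase, was covered at 42.7% and 39.9% with vehicle and at 0 in both CDDD11-8 libraries. MAD2L1, a spindle checkpoint protein, was covered at 7.03% and 2.49% with vehicle and at 0 with CDDD11-8. CENPA, the centromeric histone, was covered at 21.01% in vehicle replicate 1 only. Mean coverage over the 7 genes was 16.4% and 15.5% with vehicle and 0 in both CDDD11-8 libraries.

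Genes of 3′ end processing and termination numbered 6, of which 4 were lower, 1 was higher and 1 overlapped. All 6 had a constant promoter peak, and 37% of such genes were lower and 3.24% were higher. PAPOLA, the poly(A) polymerase, was covered at 64.3% and 62.5% with vehicle and at 0 in both CDDD11-8 libraries. CPSF2, a subunit of the cleavage and polyadenylation factor, went from 12.6% and 6.33% to 0. WDR33, another subunit of that factor, was higher, at 7.96% and 7.77% with vehicle and 27.8% and 18.6% with CDDD11-8. RBBP6 overlapped, at 17.4% and 19.1% against 17.1% and 14.9%.

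Luminal lineage genes were found in both directions. Of 15 members, 7 were lower, 2 were higher, 1 overlapped and 5 had no peak, against 17.4% lower and 1.83% higher among all genes. All 7 lower genes were among the 11 members with a constant promoter peak, of which class 37% were lower. GRHL2, an epithelial transcription factor gene, was covered at 42.5% and 31.4% with vehicle and at 0 with CDDD11-8. TFAP2A, which encodes transcription factor AP-2 alpha, went from 50.9% and 49.8% to 96.6% and 85.1%, with its strongest summit at 14.3 kb in both CDDD11-8 libraries against 1.75 and 1.94 kb with vehicle. TRPS1, a GATA-type transcription factor gene of 260.5 kb, went from 47.4% and 42.6% to 89.6% and 75.8%. GATA3 hardly moved, at 42.9% in both vehicle libraries and 44.7% and 42.1% with CDDD11-8.

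Ribosomal protein genes were also found in both directions. Of 12 members, 4 were lower, 3 were higher, 3 overlapped and 2 had no peak, against 17.4% lower and 1.83% higher among all genes. The 4 lower genes were among the 10 members with a constant promoter peak, a share near the 37% of that class. The median difference of these 10 was -4.94 percentage points, against -1.17 in the whole class. Mean coverage over the 12 members was 31.3% and 25.7% with vehicle and 29.2% and 24.2% with CDDD11-8. RPL6 was covered at 43.0% and 37.9% with vehicle and at 31.7% and 37.9% with CDDD11-8. RPL34 went from 67.9% and 53.5% to 35.9% and 36.1%, RPS12 from 39.0% and 39.3% to 30.03% and 11.0%, and RPL39 from 57.9% and 51.4% to 2.77% and 0. RPL39 was thus nearly emptied, whereas RPS15A was among the 6 genes with the largest differences towards higher coverage.

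Immediate-early and short-lived transcript genes had 10 members, of which 4 were lower, 1 was higher, 2 overlapped and 3 had no peak, against 17.4% lower and 1.83% higher among all genes. The 4 lower genes were among the 8 members with a constant promoter peak, of which class 37% were lower. DUSP5, a MAP kinase phosphatase gene, was covered at 31.7% and 8.79% with vehicle and at 0 with CDDD11-8. DUSP6, a related phosphatase, went from 17.7% and 16.5% to 9.93% and 9.57%, and TSC22D1 from 35.4% and 28.1% to 16.0% and 13.5%. KLF2, a short transcription factor gene of 3.86 kb, was covered at 16.6% and 13.6% against 14.0% and 12.4%, and ID2 at 16.3% and 22.4% against 19.2% and 20.7%. For both KLF2 and ID2 the groups overlapped. None of these lists was tested as a list, and all were chosen with earlier results known.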

How the data were processed

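RNAPII ChIP-seq peak lists of 4 libraries were used, 2 per treatment, and the input libraries, which have no list, were not analysed here. The authors aligned paired-end reads of 150 bp to GRCh37 with Bowtie 2 and called peaks per library with MACS2 at default settings against the paired input, without pooling replicates. DiffBind and deepTools are also named in the submitters' processing notes. Their versions, and the treatment of reads with several alignments, are not given in the sources used here. In the deposited lists, the pileup was a whole number at 100% of summits in both vehicle libraries. It was a whole number at 0.323% and 3.36% of summits in CDDD11-8 replicates 1 and 2, whose signal had been scaled. Fold enrichment, as the authors give it, is the ratio of signal to local background. Each p-value and q-value was deposited as its −log10, with a smallest −log10 q-value of 2.00 in each list.

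From these lists, summits of 1 region were joined, and covered bases and summits were counted in each window with Python 3.11.15, numpy 2.4.6, pandas 2.3.3 and pysam 0.24.0. Genes on both sex chromosomes in shared regions were counted once. Each library gave 1 value per window, and treatments were compared with two-sided exact permutation tests, enumerated in Python with numpy. Depth is unknown, so no interval from depth is given. The window counts were tested on simulated regions after 478 genes of chromosome 1 and matched a base-by-base count in all windows.

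Genes and gene lists were chosen with earlier results of these data known. Named are, among genes whose promoter carried a peak in every library, the 6 with the largest decrease, the 6 with the largest increase and the 5 with the highest lowest coverage of the 15 kb, the members among MYC, MCL1, CDK9, CENPF and E2F2, and up to 5 genes of each list with the highest vehicle coverage. Alternatives were only peaks with a −log10 q-value of 5 or more, lists cut to equal length, summits with 250 bp either side, merging within 1 kb, other neighbour, gene end and promoter rules, each replicate left out, a replicate block and, chosen after seeing the data, genes with no gene within 30 kb. Some genes and sequences are not reported here.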

Additional observations from a re-analysis of the deposited data

How the results depend on the processing

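All 17 comparisons of window coverage, summits and reach kept their direction with only peaks whose −log10 q-value was 5 or more, with only protein-coding neighbours, with the outermost annotated end, with promoter-peak genes only and with each replicate left out. Coverage at 10-15 kb turned to a CDDD11-8 minus vehicle difference of 0.103 percentage points with equal numbers of peaks and of 0.226 with no gene within 30 kb, and summits at 10-15 kb to 0.946 with equal numbers of peaks. The difference in median reach turned to 34.5 bp with summits of 250 bp either side, a setting that trims regions and cannot compare the full reach. With equal numbers of peaks that difference was -1750 bp. The cause of these turns was not tested. Leaving out 1 replicate moved the coverage difference at 10-15 kb between -0.816 (without vehicle replicate 2) and -0.233 (without vehicle replicate 1), and the summit difference between -2.24 and -0.587. Equal numbers of peaks reduced the differences to -4.80 at 0-1 kb, -5.78 at 1-3 kb, -3.50 at 3-5 kb and -1.08 at 5-10 kb.

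Among named genes whose groups overlapped, ID2 turned to -0.617 percentage points with only peaks whose −log10 q-value was 5 or more and SPRED2 to 0.293 with equal numbers of peaks. With 1 replicate left out, differences ranged from -0.747 to 1.77 for GATA3, from -2.44 to 3.67 for ID2, from -11.4 to 2.07 for SPRED2 and from -0.723 to 7.96 for FGFR4.

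The replicate block, with the shared replicate number as the pairing, changed no value: the difference at 1-3 kb was -8.97 percentage points, with p = 0.5 in the exact permutation test of the pairs, the smallest it allows. The labels do not say that the number marks a shared passage. Across the 4597 genes, deviations of same-numbered libraries had a Pearson correlation of 0.228, which describes genes that are not independent replicates. Depth is unknown, and a list from a deeper library can hold more weak peaks, which limits every comparison of coverage between treatments.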

Other observations

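Members of the gene lists that were not described above were read after their values had been seen. Among ribosomal protein genes, RPS29 was covered over the 15 kb after the TES at 18.8% and 15.2% with vehicle and at 52.6% and 53.5% with CDDD11-8, and RPL3 at 38.0% and 29.02% against 44.4% and 38.6%. Both RPS29 and RPL3 were higher in both CDDD11-8 libraries. Among luminal genes, KRT18, a keratin of simple epithelia, was covered at 25.5% and 19.3% with vehicle and at 11.5% and 8.07% with CDDD11-8. CLDN3, a tight junction claudin, was covered at 18.4% and 16.7% against 14.7% and 11.7%. MYB was covered at 12.7% and 21.5% with vehicle, TFAP2C at 28.6% and 2.21%, and ALCAM at 6.43% and 5.05%, and each of these 3 genes was at 0 in both CDDD11-8 libraries. Of the immediate-early genes, IER5 was the 1 higher member, at 0 and 4.57% with vehicle and at 15.4% and 8.57% with CDDD11-8.

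Genes without a promoter peak in any library were read for comparison, and their windows near the TES also differed between treatments. Where they had no gene within 30 kb (1367 genes), the 1-3 kb window was covered at 0.697% and 0.562% with vehicle and at 0.0549% and 0.0594% with CDDD11-8. The ratio of means was 11.0, and the vehicle values lay above the 0.0880% and 0.0827% of bases at least 15 kb from any gene. The 10-15 kb window of these 1367 genes was covered at 0.131% and 0.0936% against 0.117% and 0.0697%, with overlapping groups. At 15-20 kb their coverage was 0.157% and 0.155% with vehicle and 0.151% and 0.106% with CDDD11-8. At 20-30 kb it was 0.350% and 0.310% against 0.227% and 0.188%. Both CDDD11-8 libraries thus lay below both vehicle libraries in these 15-30 kb, unlike after genes with a constant promoter peak.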
